A study of Homo sapiens with 2 samples.

Results

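Keratin-rich epithelial cells were a small population of human inner ear organoids, 163 of 31818 cells kept from 2 single-cell libraries. They were chosen by their transcript counts: at least 3 unique molecular identifiers (UMIs, each counting 1 captured transcript) summed over KRT5, KRT15 and SFN, at least 1 UMI of EPCAM, fewer than 5 of COL1A2, and fewer than 3 summed over the proliferation genes MKI67, TOP2A and UBE2C. GelNB-CH gave 125 of these cells and Matrigel 38. The genes of this rule are therefore given as descriptions and not as findings. OC90, a gene of the otic vesicle, took no part in the rule.

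The organoids came from WA25 human embryonic stem cells carrying a nuclear tdTomato reporter at SOX2, and only reporter-positive cells, sorted on day 40, were loaded on the 10x Genomics 3' assay. The first group, GelNB-CH, was a gelatin-based hydrogel set by light. The other group, Matrigel, is an extract of basement membrane proteins. Each had 1 library. Both shared the same early steps of FGF-2, SB-431542, BMP-4, LDN193189 and CHIR99021 with a low dose of Matrigel at the start. The growth text attached to both libraries describes embedding in GelNB-CH followed by a step with oDex, and an embedding step in Matrigel is not described in the sources used here. Nothing beyond the label therefore says how the Matrigel library was cultured.

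The libraries held 21743 and 10912 barcodes with 247006223 and 178672097 UMIs in GelNB-CH and Matrigel. Keratin-rich cells had a median of 15372 UMIs in GelNB-CH (range 4161 to 53898) and 20631.5 in Matrigel (range 4856 to 59045), so Matrigel cells were read more deeply. The doublet caller Scrublet marked 13 of the 125 GelNB-CH cells and 0 of the 38 Matrigel cells, beside 11.6% and 3.72% of the other EPCAM-positive cells, and marked cells were kept. The libraries shared 78 barcodes, none of them between keratin-rich cells of the 2 libraries. With 1 library per group there was no replicate and no test. Each difference describes these libraries, and every interval below is a 95% interval for counting error alone.

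Keratins are the intermediate filament proteins of epithelia: KRT8, KRT18 and KRT19 typify simple, single-layered epithelium, while KRT5, KRT14 and KRT15 typify the basal layer of stratified epithelium such as epidermis. TP63 encodes the transcription factor p63, which specifies that basal layer, and SFN encodes 14-3-3 sigma, an epithelial adaptor protein. The inner ear arises from the same surface ectoderm that forms epidermis, through the otic placode, and otic and epidermal cells share many early regulators. CXCL14 is a chemokine made by several epithelia including skin.

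The simple keratins KRT19 and KRT8 were found in nearly every cell, and the basal keratins were found unevenly. KRT19 was detected in 124 of 125 GelNB-CH cells and 38 of 38 Matrigel cells, and KRT8 in 122 and 35. Most EPCAM-positive cells with no UMI of KRT5, KRT15 or SFN also had these 2 genes. KRT19 was in 83.2% and 82.0% of those cells in GelNB-CH and Matrigel, and KRT8 in 80.8% and 84.3%. Detection of simple keratins was therefore not particular to the keratin-rich cells. Of the basal keratins, KRT15 had a UMI in 96 and 34 cells, KRT5 in 64 and 12, and KRT14 in 23 and 8. KRT15 and KRT5 were part of the rule. TP63 had a UMI in 22 and 7 cells, and CXCL14 in 67 and 14. The cornified-layer genes FLG and LOR were at 0 in both libraries. SPRR1B, a cornified envelope gene, had a UMI in 28 and 5 cells. The cells are accordingly called keratin-rich here, and no epidermal identity is given to them as a whole.

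The promoter windows of KRT5, SFN and CXCL14 were searched, and those of KRT15 and EPCAM were not. SFN and CXCL14 had, in the 250 bases before their RefSeq start, the letters TGANTCA, the motif of AP-1 factors such as FOS and JUN. They are printed for their letters only. No link between them and the levels of FOS, SFN or CXCL14 in the 2 libraries was tested. The windows are from GRCh38.p14, read 5′ to 3′ on the gene's strand, with the motif in capitals: SFN at chr1:26862969-26862995 on the plus strand, with the motif beginning 170 bases before the start, and CXCL14 at chr5:135579067-135579093 on the minus strand, beginning 92 bases before it.
SFN: actgttctgaTGATTCAcccccacatc
CXCL14: gaaatctcagTGAGTCAccgagtggtt
The KRT5 window held neither this motif nor TATAAA nor GCCNNNGGC, the letters of TFAP2 factors. Over 35116 promoter windows searched on both strands, 6.57% held TGANTCA, 10.7% TATAAA and 19.8% GCCNNNGGC. A match is a description of the letters and not of a bound site.

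The gate was narrow in both libraries. A keratin sum of at least 3 was met by 231 GelNB-CH and 60 Matrigel cells, of which 30 and 4 had no EPCAM UMI, 46 and 14 more had COL1A2 at 5 or above, and 30 and 4 more had cycling transcripts. Just outside the threshold, 38 GelNB-CH and 22 Matrigel cells had a sum of 2, and just inside it 16 and 10 had a sum of 3. The median sum was 10 in GelNB-CH and 6.5 in Matrigel, with maxima of 122 and 60. Matrigel cells thus lay nearer the threshold. Keratin-rich cells were 0.586% of kept cells in GelNB-CH (0.488% to 0.698%) and 0.362% in Matrigel (0.256% to 0.496%), a ratio of 1.62 (1.12 to 2.39). Among EPCAM-gated cells the shares were 2.16% (1.80% to 2.57%) and 1.87% (1.32% to 2.55%), a ratio of 1.16 (0.799 to 1.71). The sort, the gate and the unequal depth can each set these shares. Thinned to 5000 UMIs per cell, the shares of kept cells were 0.320% and 0.149%.

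The genes that defined the cells were used by them unevenly. KRT15 (ENSG00000171346, GRCh38 chromosome 17, 41513743 to 41522529) gave the largest part of the keratin sum in 57 GelNB-CH and 30 Matrigel cells. KRT5 (ENSG00000186081, chromosome 12, 52514575 to 52520687) gave it in 34 and 2 cells, and SFN (ENSG00000175793, chromosome 1, 26863138 to 26864457) in 34 and 6. Most Matrigel cells were thus admitted through KRT15. Levels are given below as CPM, UMIs summed over the cells and scaled to the same total, which in a 3' assay do not grow with gene length. Where a pair of values is given with no library named, the first is GelNB-CH and the second Matrigel, and a ratio is the first over the second.

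KRT15 stood at 379 and 390 CPM, a ratio of 0.971 (0.854 to 1.11), with medians of 3 and 4.5 UMIs per cell. KRT5 stood at 405 and 71.8 CPM, a ratio of 5.64 (4.35 to 7.42), with medians of 1 and 0 UMIs. SFN stood at 241 and 73.0 CPM, a ratio of 3.30 (2.53 to 4.35), also with medians of 1 and 0. EPCAM (ENSG00000119888, chromosome 2, 47345158 to 47387601), an epithelial adhesion molecule, stood at 370 and 356 CPM. The 2 libraries therefore had like levels of KRT15 and EPCAM, and the GelNB-CH cells held more KRT5 and SFN. These 4 genes were part of the rule, and 27.4% of the Matrigel KRT5 UMIs came from 1 cell.

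**Figure D1:**
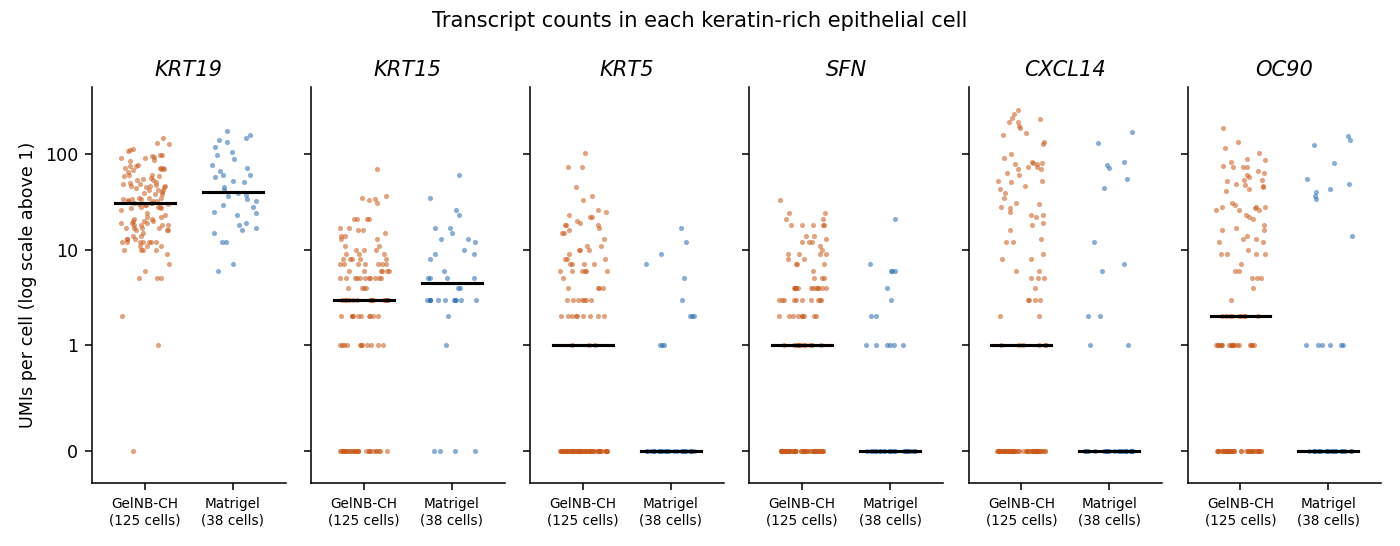
UMIs per cell of KRT19, KRT15, KRT5, SFN, CXCL14 and OC90 in the keratin-rich cells of GelNB-CH (orange) and Matrigel (blue), on a scale that is logarithmic above 1. Each point is 1 cell and each bar the median. KRT19 lies well above 0 in all but a few cells, with medians of 31 and 40.5, while KRT5, SFN, CXCL14 and OC90 are at 0 in many cells of both libraries.

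Keratins outside the rule differed among themselves. KRT19 stood at 2284 and 2517 CPM (ratio 0.908, 0.863 to 0.955). KRT8 stood at 1174 and 854 CPM (ratio 1.38, 1.27 to 1.50) and its partner KRT18 at 894 and 588 CPM (ratio 1.52, 1.38 to 1.68). These 3 simple keratins were thus abundant in both libraries, at levels within 2-fold. KRT7, another simple keratin, was further apart at 150 and 30.1 CPM (ratio 4.98, 3.34 to 7.75), with UMIs in 35 and 4 cells. KRT17, a keratin of periderm, skin appendages and wounded epidermis, stood at 1589 and 529 CPM (ratio 3.00, 2.72 to 3.32) and was detected in 97 and 25 cells. KRT6A, a wound and mucosal keratin, stood at 88.2 and 11.6 CPM (ratio 7.61, 4.05 to 16.1) in 18 and 3 cells, and 80% of its Matrigel UMIs came from 1 cell. KRT14, the usual partner of KRT5, stood at 31.9 and 19.7 CPM, far below KRT15. KRT1, the early suprabasal keratin, stood at 2.81 and 23.2 CPM, and all of its Matrigel UMIs came from 1 cell.

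CXCL14 (ENSG00000145824, chromosome 5, 135570679 to 135579279) stood at 1933 and 768 CPM, a ratio of 2.52 (2.32 to 2.74). It was highly uneven: 67 of 125 GelNB-CH cells (53.6%) and 14 of 38 Matrigel cells (36.8%) had a UMI, and single cells reached 287 and 171 UMIs. Thinned to equal depth the shares were 48.8% and 29.7%. In cells high in COL1A2 and lacking EPCAM, 11.2% and 7.42% had a CXCL14 UMI at medians of 9886.5 and 15291 UMIs, so the keratin-rich shares stood above that level.

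TP63 (ENSG00000073282, chromosome 3, 189631416 to 189897279) stood at 20.6 and 13.9 CPM, a ratio of 1.48 (0.771 to 3.09), so no difference was detectable at this depth. SOX2 (ENSG00000181449, chromosome 3, 181711924 to 181714436), the gene of the sorting reporter, stood at 7.50 and 12.7 CPM, a ratio of 0.589 (0.257 to 1.40). A SOX2 UMI was found in 12 of 125 and 8 of 38 cells. Thinned to equal depth these shares were 5.69% and 8.11%, beside 5.47% and 8.48% in other EPCAM-positive cells and 3.88% and 4.64% in the COL1A2-high cells. SOX2 transcripts were thus few in all of these sorted cells.

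OC90, which encodes an otoconial matrix protein made by otic epithelium, varied widely among the cells. Its level was 1098 and 900 CPM (ratio 1.22, 1.12 to 1.32), with medians of 2 and 0 UMIs and maxima of 188 and 156. At least 10 UMIs were found in 46 GelNB-CH cells (36.8%, 28.4% to 45.9%) and 11 Matrigel cells (28.9%, 15.4% to 45.9%), while 40 and 21 cells had none. The mean level therefore described few of the cells.

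Among other EPCAM-positive cells, which passed the same gates with a keratin sum of 0, OC90 stood at 4301 and 3365 CPM, and 89.3% and 80.3% of cells had at least 10 UMIs. Keratin-rich cells were thus 3.92-fold and 3.74-fold lower in level. EPCAM-positive cells just below the rule, with a keratin sum of 1 or 2, stood at 3750 and 2595 CPM. Of these, 87.6% and 81.7% had at least 10 OC90 UMIs, so the level in keratin-rich cells depends on where the threshold lies. The COL1A2-high cells, taken as the background, stood at 67.2 and 25.0 CPM, and 1.85% and 0.643% of them reached 10 UMIs. Thinned to equal depth, 54.5% and 37.8% of keratin-rich cells had an OC90 UMI, against 13.8% and 6.84% of the COL1A2-high cells.

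**Figure D2:**
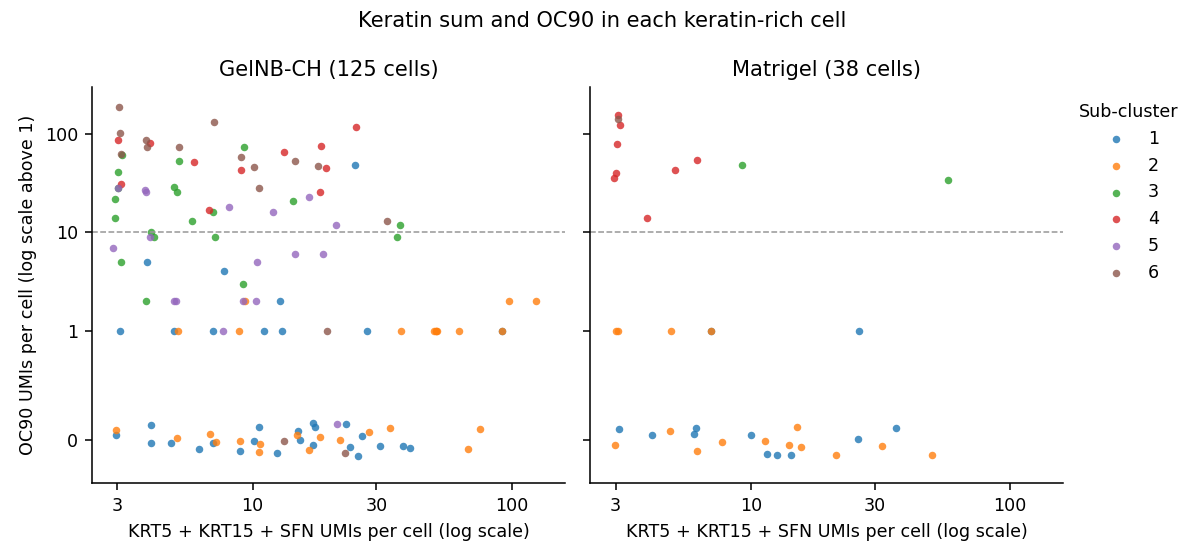
OC90 UMIs against the sum of KRT5, KRT15 and SFN UMIs in each keratin-rich cell of GelNB-CH (left) and Matrigel (right), coloured by sub-cluster, with a dashed line at 10 OC90 UMIs. Axes are logarithmic (OC90 above 1 only) and points are slightly jittered. Cells of sub-cluster 2 have at most 2 OC90 UMIs at any keratin sum, and those of sub-cluster 4 all have at least 14.

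The 57 cells with at least 10 OC90 UMIs and the 106 with fewer differed in other genes, and the values that follow give the OC90-high cells first. PAX2, a transcription factor of the otic vesicle, stood at 183 CPM in the OC90-high cells and 24.9 CPM in the rest (ratio 7.36, 5.27 to 10.5). FBXO2, an otic ubiquitin ligase subunit gene, stood at 179 and 60.1 CPM. COL2A1, the collagen of cartilage and of the otic vesicle, stood at 574 and 140 CPM. The otic genes thus went with OC90. In the other direction, CXCL14 stood at 551 and 2454 CPM, 4.45-fold higher in the OC90-low cells. ANXA1, an annexin of squamous epithelium, stood at 112 and 662 CPM, and SPRR1B, a cornified envelope precursor, at 25.2 and 487 CPM. TP63 had a UMI in 4 of the 57 and 25 of the 106 cells. KRT18 stood at 808 and 805 CPM and KRT19 at 1879 and 2738 CPM, so both were common to the 2 sets. KRT5, at 58.6 and 514 CPM, was among the genes that admitted the cells, so its level depends on the rule. These cells were split by a range of OC90, with no claim of 2 separate types. The cut at 10 UMIs was not scaled for depth. Cells had a median of 19321 UMIs at 10 or more OC90 UMIs, 15734 at 1 to 9 and 13006 at 0. The part of depth in this split was not tested.

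Compared with the other EPCAM-positive cells of the same library, 10260 genes passed the minimum of 10 CPM. Of these, 386 (3.76%) were at least 2-fold higher in keratin-rich cells in both libraries and 432 (4.21%) at least 2-fold lower in both. The cells were chosen on transcript counts, so these values describe the gate. Among the lists, 7 of 8 stratified keratins, 4 of 4 simple keratins and 7 of 9 desmosome genes were at least 2-fold higher in both libraries, and none was lower. For surface ectoderm genes the count was 8 of 11, for periderm 7 of 10 and for basal epidermis 9 of 15, again with none lower. These counts include genes the cells were selected on: KRT5 and KRT15 among stratified keratins and basal epidermis, and SFN among periderm. The median log2 fold was 5.97 and 3.76 for stratified keratins and 1.92 and 1.80 for desmosome genes in the 2 libraries, beside -0.08 and -0.11 over all genes compared.

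Among keratins, KRT17 was 30.3-fold and 14.1-fold higher than in other EPCAM-positive cells, and KRT19 6.90-fold and 6.21-fold higher. Among desmosome genes, which encode the junctions anchoring keratin filaments, DSC3 (desmocollin of stratified epithelium) stood at 52.5 CPM against 0.236 CPM in GelNB-CH, 222-fold higher, and was 89.1-fold higher in Matrigel. DSP, encoding desmoplakin, was 4.98-fold and 3.76-fold higher. Genes of other epithelial junctions were closer: CDH1, encoding E-cadherin, was 2.26-fold and 2.05-fold higher, and 2 of 14 tight junction genes were higher in both.

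Several transcription factors of the ectoderm were higher. TP63 was 45.1-fold and 33.1-fold higher, TFAP2B 9.42-fold and 26.0-fold, and BARX2, a homeobox gene, 33.2-fold and 109-fold. TFAP2C was 4.93-fold and 5.00-fold higher. GATA3, a factor of both ear and skin, was 4.43-fold and 3.29-fold higher and was the only otic epithelium gene of 17 to be higher in both libraries.

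Of secreted and surface genes, CXCL14 was 254-fold and 171-fold higher and WNT6, a ligand of surface ectoderm, 40.1-fold and 27.0-fold. ANXA1 was 54.0-fold and 32.4-fold higher, and KREMEN2, a WNT co-receptor modulator, 51.6-fold and 26.2-fold. The long RNA MIR205HG, host of the epithelial miR-205, stood at 181 against 10.8 CPM and at 297 against 18.1 CPM, with a UMI in 74 and 23 cells. Genes of cornified envelopes were high in few cells. SPRR1B was 94.8-fold and 83.6-fold higher from 28 and 5 cells. SPRR3 was 133-fold and 351-fold higher from 18 and 3 cells, with 88.2% of its Matrigel UMIs in 1 cell. Summed over 16 suprabasal and cornified genes, keratin-rich cells held 689 and 544 CPM, beside 287 and 293 CPM in other EPCAM-positive cells.

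Otic genes were lower in the keratin-rich cells, 10 of the 17 compared in both libraries. PAX2 was 3.19-fold lower in GelNB-CH and 6.15-fold lower in Matrigel, TBX2 4.16-fold and 4.07-fold lower, and LMX1A 4.75-fold and 2.54-fold lower. CLDN14, a claudin of the inner ear, stood at 25.3 against 164 CPM and 19.7 against 144 CPM. SOX10 was closer, 1.67-fold and 2.10-fold lower. Outside that list, ITGA8 was 12.4-fold and 9.08-fold lower and IGF1 6.07-fold and 7.25-fold lower.

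Markers of other cell types were counted as whole lists. Summed over 10 mesenchyme markers, keratin-rich cells held 247 and 114 CPM, beside 156 and 88.7 CPM in other EPCAM-positive cells, with 3 of the 10 at 0 in Matrigel. The list includes COL1A2, which the gate limits in both kinds of cell and which stood at 42.2 and 37.1 CPM in keratin-rich cells. Summed over 10 neuron markers keratin-rich cells held 317 and 193 CPM, beside 468 and 621 CPM, with 4 at 0 in Matrigel. Summed over 8 cartilage markers they held 1099 and 506 CPM, beside 2364 and 1554 CPM, with 1 at 0 in Matrigel. Mesenchyme and cartilage markers thus stood higher in GelNB-CH in both kinds of cell, and their part in the differences between libraries was not tested. A hair cell gene programme was present in 1 GelNB-CH cell, which had a UMI of 15 of 18 hair cell genes, and in no other cell were more than 4 detected. No cell had 8 or more of the 12 Merkel cell markers, Merkel cells being the SOX2-positive sensory cells of skin.

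Clustering of the 163 cells on 1500 variable genes gave 6 sub-clusters, which are described by their leading genes and not compared in size between libraries, since genes that defined them also differed between the libraries. Sub-cluster 1 (33 GelNB-CH and 12 Matrigel cells) met the marker rule for basal epidermis, with TP63, KRT15, COL17A1, DST and ITGA6 at least 2-fold above the other cells, and is called basal epidermis-like. TP63 stood at 82.6 CPM with a UMI in 24 of its 45 cells, and CXCL14 at 6469 CPM with a median of 70 UMIs. COL17A1, a collagen of hemidesmosomes, stood at 102 CPM and MIR205HG at 793 CPM. OC90 had a UMI in 13 of the 45 cells.

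Sub-cluster 2 (27 and 15 cells) held squamous and wound genes. It met the count for periderm with 5 of 14 markers, but suprabasal genes were among its 10 leading genes and no periderm gene was, so it was left unnamed. SPRR1B stood at 1022 CPM, SPRR3 at 226, KRT6A at 217 and SERPINB2, a serpin of differentiating keratinocytes, at 127 CPM, and SPRR3 had a UMI in 17 of 42 cells. KRT5 stood at 781 CPM, KRT17 at 2180 and ANXA1 at 1081 CPM, while TP63 had a UMI in 2 of the 42 cells. No cell had more than 2 OC90 UMIs.

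Most cells of sub-clusters 3 to 6 had OC90. Sub-cluster 3 (20 and 2 cells) had KRT15 at 690 CPM in all 22 cells, KRT5 and SFN in 1 cell each, SPX at 1131 CPM and SOX10 at 124 CPM, with OC90 in every cell. It held 6 of 10 Schwann or satellite glia markers, but its 10 leading genes included a neuron marker, STMN2, and none of glia, so it was left unnamed. Sub-cluster 4 (11 and 8 cells) met the rule for otic epithelium with 10 of 19 markers, OC90 at 2137 CPM and a median of 52 UMIs. It also held DCC, a netrin receptor, at 1064 CPM in 14 of 19 cells and CA2, a carbonic anhydrase, at 464 CPM in all 19. Sub-cluster 5 (18 and 0 cells) was admitted by SFN, at 419 CPM in all 18 cells, with KRT18 at 2030 and PLAUR at 422 CPM, and no CXCL14. It held 7 of 17 basal epidermis markers, but SPRR2A of the suprabasal list was among its 10 leading genes, so it was left unnamed. A count of 0 of 38 allows up to 9.25% of Matrigel cells. Sub-cluster 6 (16 and 1 cells) held COL2A1 at 1318, COL9A1 at 629 and MATN1, a cartilage matrix protein gene, at 190 CPM together with OC90 at 2779 CPM. It met the marker rule for cartilage with 7 of 8 markers but also held 6 of 19 otic epithelium markers and 7 of 22 supporting cell markers. It held 6 of 10 mesenchyme markers as well, with LUM among its 10 leading genes. It is therefore given by number, and Scrublet marked 5 of its 17 cells. A sub-cluster mostly of 1 library may belong to that library.

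**Figure D3:**
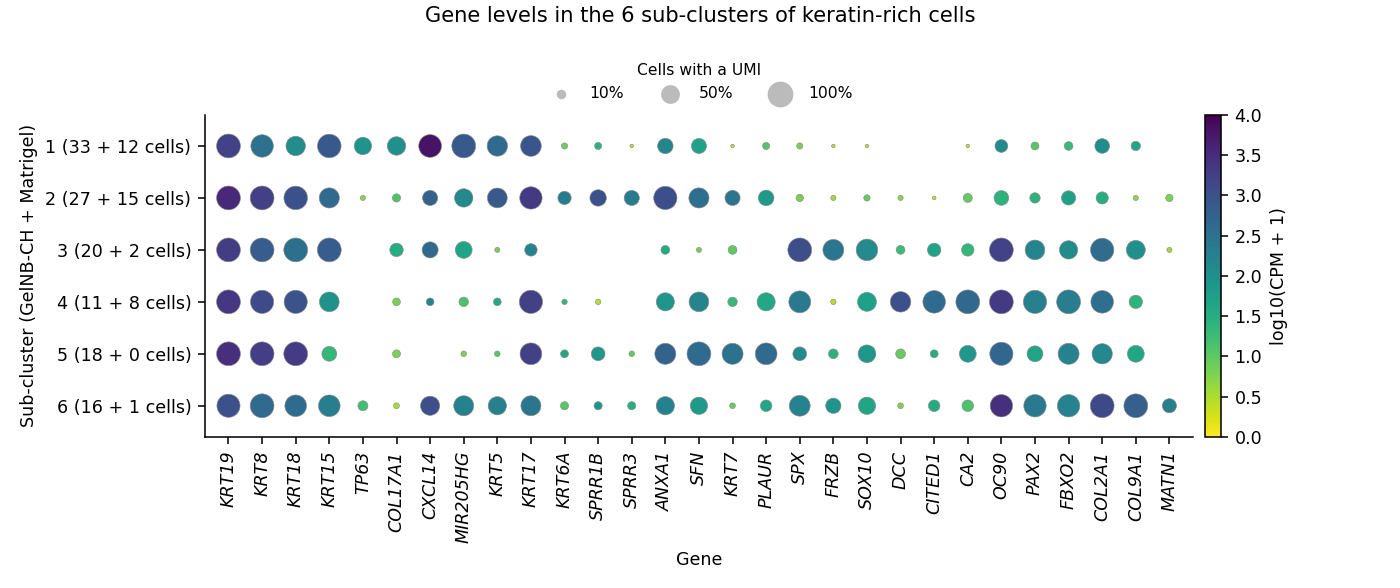
Gene levels in the 6 sub-clusters of keratin-rich cells, labelled with their GelNB-CH and Matrigel cells. Dot area gives the percent of cells with a UMI and colour the log10 of CPM + 1. KRT19 and KRT8 were found in most cells of all 6, KRT18 was lowest in sub-cluster 1 at 111 CPM, TP63 and CXCL14 are highest in sub-cluster 1, SPRR1B and KRT6A in sub-cluster 2, and OC90 is highest in sub-clusters 3, 4 and 6.

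Between the libraries, 10691 genes were compared in the keratin-rich cells. Of these 643 (6.01%) were higher by 2-fold or more in GelNB-CH and 660 (6.17%) in Matrigel, with a median log2 ratio of 0.02. The interval excluded 2-fold for 159 and 99 genes. In 23 and 74 of the genes at least 50% of the UMIs in the higher library came from 1 cell, so single cells weighed more among the 38 Matrigel cells. Leaving out cells with at least 10 OC90 UMIs gave counts of 1046 and 1140 genes. The number of genes compared there is not given, so these counts have no share beside them. That set held 79 and 27 cells, where 1 UMI is 0.859 and 2.07 CPM, against 0.469 and 1.16 CPM in the full set. The part of sparser counts in the rise was not tested.

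Among the genes higher in GelNB-CH, S100A2, a calcium-binding protein gene of basal keratinocytes, stood at 128 and 1.16 CPM, with UMIs in 30 GelNB-CH cells and 1 Matrigel cell, a ratio of 110 (19.6 to 4366). MMP9, a secreted gelatinase gene, stood at 76.9 and 1.16 CPM in 16 and 1 cells, a ratio of 66.4 (11.8 to 2639). FGFBP1, an FGF carrier protein gene, stood at 24.4 and 1.16 CPM in 17 and 1 cells, and IGFL2 at 44.6 and 2.32 CPM in 24 and 2 cells. CXCL8, the neutrophil chemokine gene, stood at 66.1 and 0 CPM, at least 19.0-fold higher against a floor of 3 counts over the Matrigel cells. It came from 9 cells, with 48.9% of UMIs in 1. The matrix genes MATN1 (37.5 and 1.16 CPM), EPYC (58.6 and 3.47 CPM) and HAPLN1 (55.8 and 2.32 CPM) were also higher. In other EPCAM-positive cells their ratios were 3.25, 3.37 and 3.96, so this direction was not particular to keratin-rich cells. There S100A2 had a ratio of 4.16 and MMP9 of 3.76, while IGFL2 (0.678) and CXCL8 (0.791) lay on the other side. MMP9, IGFL2 and CXCL8 were below 1 CPM in those cells. Sub-cluster 6, of which 16 of 17 cells were from GelNB-CH, held MATN1 and EPYC among its leading genes. In GelNB-CH NPW reached 45.0, DSCAM 20.6 and GAL 20.2 CPM, and each was at 1.16 CPM in Matrigel. Sub-cluster 5, which has no Matrigel cell, held 76 of the 96 GelNB-CH UMIs of NPW and 32 of the 52 of FGFBP1. The NPW ratio was 0.730 in cells of 8000 to 16000 UMIs.

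Of the genes higher in Matrigel, DCC stood at 58.6 and 557 CPM in 15 and 8 cells, 9.50-fold higher (7.79 to 11.7), and was a leading gene of sub-cluster 4. In cells of 8000 to 16000 UMIs its ratio of GelNB-CH to Matrigel was 1.50, the other direction. TNNC1, a troponin gene, stood at 1.88 and 25.5 CPM in 4 and 8 cells, 13.6-fold higher (4.61 to 54.2). FYB2 stood at 3.75 and 39.4 CPM, 10.5-fold higher (4.77 to 26.2), ABCA7 at 2.34 and 22.0 CPM, and IFITM1, an interferon-induced gene, at 5.16 and 44.0 CPM. DCC, TNNC1 and IFITM1 were among the 10 leading genes of sub-cluster 4. The others rested mainly on 1 Matrigel cell: SPINK1 (95.2% of UMIs), CTNNA2 (94.6%), HMOX1 (92.6%), ZNF114 (79.2%), AVPR1A (70.8%) and S100P (51.7%). MYL4 had UMIs in 1 Matrigel cell.

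**Figure D4:**
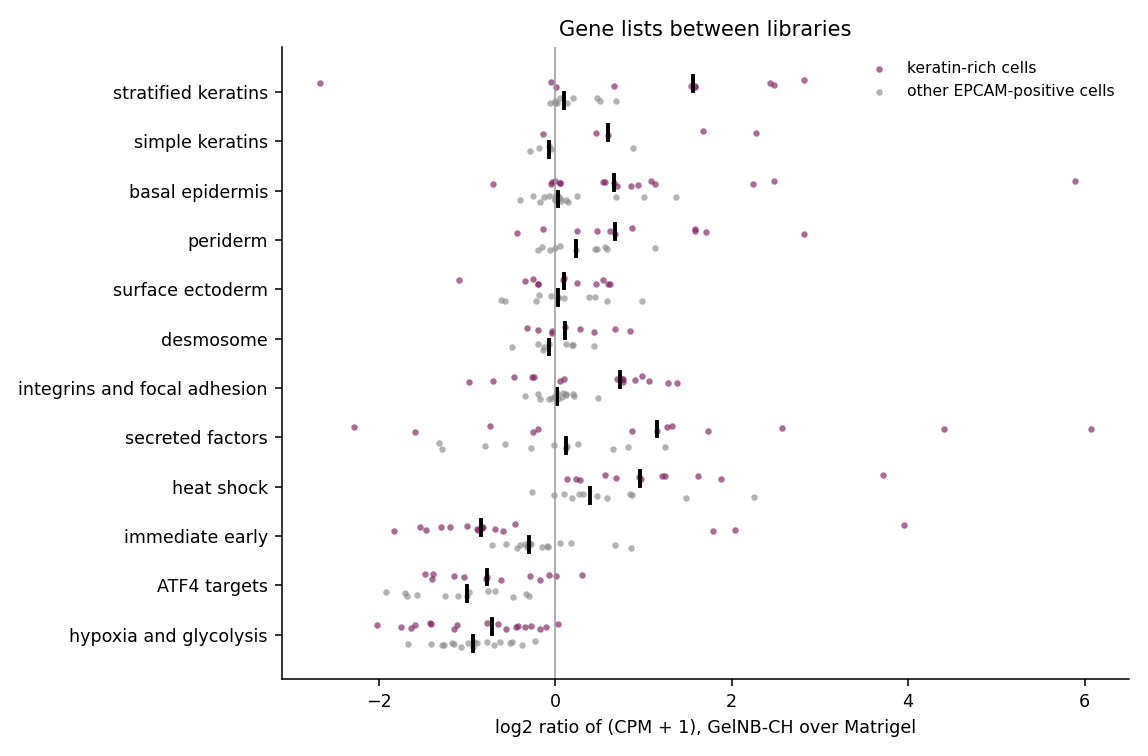
Log2 ratio of CPM + 1, GelNB-CH over Matrigel, for each gene of 12 lists in keratin-rich cells (purple) and in other EPCAM-positive cells (grey), with black bars at the medians. Stratified keratins have a median of 1.56 in keratin-rich cells and 0.10 in the others, while hypoxia and glycolysis genes lie at -0.71 and -0.93. KRT5, KRT15 and SFN are at 0 UMIs in the other cells by the gate.

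Keratin lists stood higher in GelNB-CH in the keratin-rich cells, and lists of junctions between cells did not. Of 10 stratified keratins compared, 6 were past 2-fold in favour of GelNB-CH and 1 of Matrigel, with a median log2 ratio of 1.56, beside 0.10 for the same genes in other EPCAM-positive cells. Basal epidermis genes (6 of 17 higher in GelNB-CH, median 0.67) and periderm genes (4 of 11, median 0.68) had none 2-fold higher in Matrigel. These 3 lists share KRT5, KRT15 or SFN with the rule. Those genes were at 0 UMIs in the other EPCAM-positive cells by the gate. Part of the contrast with those cells was therefore fixed in advance. Of 5 simple keratins 2 were past 2-fold in favour of GelNB-CH, at a median of 0.60. Desmosome genes were within 2-fold in 9 of 9, at a median of 0.11, and surface ectoderm genes had a median of 0.10, with DLX5 the only gene past 2-fold, at 38.0 and 82.2 CPM. The medians were 0.02 for 15 tight junction genes, -0.20 for 15 genes of epithelial adhesion and polarity and -0.02 for 6 skin appendage placode genes. Of 21 hemidesmosome and basement membrane genes, 4 were past 2-fold in favour of GelNB-CH and none of Matrigel, at a median of 0.30. Over all genes compared the median was 0.02.

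Adhesion and matrix genes gave 4 of 16 integrin and focal adhesion genes 2-fold or more above Matrigel and none 2-fold below, at a median of 0.73. ITGA2, an integrin subunit for collagen, stood at 113 and 42.9 CPM (ratio 2.64, 1.86 to 3.84). VCL, encoding vinculin of focal adhesions, stood at 234 and 461 CPM, on the other side. LAMA3, a laminin-332 chain, stood at 75.0 and 15.1 CPM (ratio 4.98, 2.83 to 9.56), with 69.2% of its Matrigel UMIs in 1 cell. Of 13 secreted factors, 7 were higher in GelNB-CH and 2 in Matrigel, at a median of 1.15. EDN1, the endothelin-1 gene, stood at 108 and 17.4 CPM (ratio 6.21, 3.69 to 11.3), and VEGFA at 40.3 and 123 CPM. With cells thinned to 5000 UMIs the medians of these 2 lists were -0.0029 for integrins and -0.15 for secreted factors, so neither kept its direction.

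Heat shock and hypoxia lists differed between the libraries in the same direction in keratin-rich and in other EPCAM-positive cells. All 12 heat shock genes were higher in GelNB-CH, 5 by at least 2-fold, with a median log2 ratio of 0.96, beside 0.40 in the other cells. HSP90AA1, the inducible HSP90 chaperone gene, stood at 1583 and 683 CPM (ratio 2.32, 2.12 to 2.53). HSPA1A stood at 187 and 49.8 CPM, and 37.7% of its GelNB-CH UMIs were in 1 cell. Hypoxia and glycolysis genes were higher in Matrigel for 17 of 18, 8 of them by at least 2-fold, at a median of -0.71, beside -0.93 in the other cells. SLC2A1, the glucose transporter gene, stood at 105 and 284 CPM, and NDUFA4L2 at 71.8 and 294 CPM (4.10-fold higher in Matrigel). The 13 mitochondrially encoded genes had a median of -0.12, beside 0.25 in the other cells, the opposite side.

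ATF4 targets, of the amino acid and unfolded protein stress response, had a median of -0.77, and DDIT3 stood at 120 and 316 CPM. Thinned to 5000 UMIs per cell the median was 0.70, in the other direction. Immediate early genes, which report recent stimulation, had a median of -0.84, with FOS at 419 and 1155 CPM. Without the cells of at least 10 OC90 UMIs the immediate early median was 0.44 and the FOS ratio 1.20, the other direction. The median was also positive with cells thinned to 5000 UMIs (0.20) and at a keratin sum of at least 5 (0.14). It kept its sign in 14 of 17 settings. Sub-cluster 4, of 11 GelNB-CH and 8 Matrigel cells, held 10852 CPM summed over the list, beside 2560 CPM in the other keratin-rich cells. The part of these cells in the library difference was not tested. The dissociation and sort of the 2 libraries could not be compared, and their part in these values was not tested.

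The higher KRT5 of GelNB-CH was also present inside sub-clusters 1 and 2, the only ones with at least 10 cells of each library. In sub-cluster 1 KRT5 stood at 588 and 118 CPM (ratio 4.98, 3.23 to 8.02), CXCL14 at 8268 and 3015 CPM (ratio 2.74, 2.51 to 3.00), and KRT19 at 1647 and 1582 CPM. BARX2 stood at 16.0 and 282 CPM, higher in Matrigel. In sub-cluster 2 KRT5 stood at 1190 and 135 CPM (ratio 8.79, 6.35 to 12.5), KRT17 at 3309 and 399 CPM, and KRT19 at 3512 and 3544 CPM. KRT15 had ratios of 1.26 in sub-cluster 1 and 1.19 in sub-cluster 2. KRT18 stood at 107 and 118 CPM in sub-cluster 1, a ratio of 0.905 (0.529 to 1.58), and had a ratio of 1.32 (1.13 to 1.54) in sub-cluster 2, so its difference over all cells was not found in sub-cluster 1. KRT8 had ratios of 1.26 (0.913 to 1.75) and 1.56 (1.37 to 1.77). KRT5 thus stood higher in GelNB-CH and KRT19 within 1.04-fold in both sub-clusters. KRT5 and KRT15 were part of the rule that admitted the cells, so their ratios here are descriptions and not findings. Of the 39 Matrigel KRT5 UMIs in sub-cluster 2, 17 were in 1 cell and 12 in another.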

How the data were processed

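Counts of UMIs, whole numbers per gene and barcode, were deposited for 2 libraries, per the file headers and the labels. The sources differ on Cell Ranger: its version is 4.0.0 per the labels' protocols but 7.1.0 per the file headers. STAR and the GRCh38 (hg38) build come from the submitters' processing notes, which name no annotation release. Coordinates are GENCODE v29, matched for 34616 of 36601 genes. Cells with at least 1000 genes and at most 15% mitochondrial UMIs were kept, 21319 and 10499. CPM were computed here from counts summed over cells, ratios with exact conditional binomial intervals and shares with exact Clopper-Pearson intervals. PCR and cell sampling are not covered by them. Genes were compared at a larger CPM of at least 10, and list medians are of log2 of CPM + 1. A difference of 2-fold is a description, not a call. Sub-clusters used 1500 variable genes, 15 components, 10 neighbours and Leiden resolution 0.5. A sub-cluster was named when at least 3 markers of a list were in 10% of its cells and 2-fold above the rest, and its 10 leading genes held no more markers of another list. The rule, the gene lists and the members were chosen with earlier results of these data known.

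The genes named between libraries were the 12 largest ratios in each direction at CPM of at least 20 with an interval excluding 2-fold, of which 1 is not reported here. Against other EPCAM-positive cells they were taken from the 20 largest and 10 smallest folds, and from lists the 2 members at each end. Other genes of the lists, of the OC90 split and of the sub-clusters were named after their values were seen. On simulated counts of 9934 genes with 200 changed 4-fold, 97.5% were recovered and 2.04% of unchanged genes passed 2-fold. The simulated counts varied by counting error alone, with no variation between cells. The 2.04% is therefore not a rate of false differences for these cells. Tools were scanpy 1.11.5, igraph 0.11.9, scipy 1.17.1, numpy 2.4.6 and pandas 2.3.3 with Python 3.11.15, and edgeR 4.0.16 with R 4.3.3 for TMM scaling alone. Promoter windows are RefSeq GRCh38.p14. Alternatives changed the gates, depth, doublets, scaling, minimum, pseudocount and weighting.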

Additional observations from a re-analysis of the deposited data

How the results depend on the processing

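No paired analysis was possible because each group had 1 library and no replicate to pair. The share in GelNB-CH was higher than in Matrigel under all 11 alternatives. It was 0.474% with COL1A2 below 2, 0.436% with KRT5 and KRT15 alone, 0.371% without OC90-high cells, 0.727% without the cycling limit, and 0.320%, 0.765% and 0.455% with cells thinned to 5000 UMIs or a keratin sum of at least 2 or 5. Matrigel gave 0.149%, 0.571% and 0.248% under the last 3 and 0.198% in cells of 8000 to 16000 UMIs. OC90 in GelNB-CH was 1048 CPM with COL1A2 below 2 and also 1048 CPM with KRT5 and KRT15 alone, 969 without doublets, 726 thinned, 977 with equal weights, 1418 and 823 at keratin sums of 2 and 5, and 780 without the cartilage-gene sub-cluster. In Matrigel it was 1140, 974, 107, 667, 1436, 346 and 760 CPM in that order with doublets left out of it, and 297 CPM at 8000 to 16000 UMIs. Genes higher in GelNB-CH and in Matrigel numbered 1046 and 1140 without OC90-high cells, 2352 and 1622 at 8000 to 16000 UMIs, 2549 and 3258 thinned, 379 and 305 at a minimum of 20 CPM, and 1105 and 1112 at 5 CPM. The thinned sets held 62 and 15 cells, where 1 Matrigel UMI is 13.3 CPM, above the minimum of 10 CPM. At 8000 to 16000 UMIs there were 56 and 10 cells, where 1 Matrigel UMI is 8.02 CPM. Without OC90-high cells there were 79 and 27 cells, where it is 2.07 CPM. The number of genes compared in each setting is not given. Genes lower than in other EPCAM-positive cells numbered 825 when thinned. Lists with a median of at least 0.5 toward GelNB-CH numbered 10, and 16 at 8000 to 16000 UMIs. Lists toward Matrigel numbered 4, then 1 without OC90-high cells and 2 both thinned and at a keratin sum of 5. Medians that changed sign when thinned were ATF4 targets 0.70, cell cycle -2.35, immediate early 0.20, integrins -0.0029, p53 targets 0.031 and secreted factors -0.15. Others were immediate early 0.44 without OC90-high cells and 0.14 at a keratin sum of 5, mesenchyme markers -0.51 at 8000 to 16000 UMIs and p53 targets 0.36 with KRT5 and KRT15 alone. Ratios that changed side were CTNNA2 2.07 and FOS 1.20 without OC90-high cells, DCC 1.50, FOS 1.33 and NPW 0.730 at 8000 to 16000 UMIs, and HMOX1 2.88 with COL1A2 below 2 and 1.01 without its top cell. The cause was not tested. Stratified keratin medians stayed between 1.20 and 2.50, heat shock between 0.54 and 1.15, and hypoxia and glycolysis between -0.77 and -0.20 over 17 settings. KRT5 ratios lay between 2.93 and 10.8. The settings by weight, top cell and omitted sub-cluster were chosen after seeing the data.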
